A study of Mus musculus with 8 samples.

Results

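The libraries compared here were made from mouse HSPCs, haematopoietic stem and progenitor cells from which the marrow renews the blood. The cells either were wild type or lacked both beta-catenin (Ctnnb1) and Hoxa9. They were chosen by their titles: 2 wild-type libraries with an empty vector (WT_EV) and 2 double-knockout libraries with the same empty vector (dKO_EV), 4 of the 8 libraries of the series. The other 4 hold double-knockout cells that carry wild-type PRMT1 (dKO_PRMT1) or a catalytically dead mutant of it (dKO_MUT). They enter the fit as a source of the spread between replicates, and their levels are given beside some of the results. For dKO_MUT replicate 2 the genotype field reads PRMT2, which goes against its title, and the title was followed. All 8 share transduction with a vector and, per the series' design text, recovery from mice after a primary transplant. The genotype field calls the 2 groups WT and dKO, while the source and cell type fields read dKO for all 8 libraries, also for WT_EV. The strain, age and sex of the mice, the number of mice pooled, the alleles and the Cre that removed the genes, the vector and the sorting markers are not stated in the labels used. The reads do show a difference of sex. Xist, expressed in female cells, had 3249 and 2252 counts in WT_EV and 0 counts in every dKO library. The Y-linked Ddx3y had 0 counts in WT_EV and 1021 and 1299 counts in dKO_EV. Every difference described below may therefore belong to genotype or to sex, which cannot be told apart here. Nothing in the labels says that the 2 replicates of a group came from separate mice or cultures. The p-values then reflect only how far these libraries spread, and that spread may be technical.

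Beta-catenin links cell adhesion to canonical Wnt signalling: when the pathway is active it escapes degradation, enters the nucleus and acts with TCF and LEF factors on target genes. Hoxa9 is a homeobox transcription factor that acts with partners such as Meis1, is high in stem and early progenitor cells and is switched off as myeloid cells mature. Both are known for their part in the self-renewal of blood stem cells and of myeloid leukaemia.

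Expression is given as CPM, the autosomal counts of a gene scaled by TMM to a common library size. This corrects for library depth and composition but not for gene length, so levels are compared between libraries and never between genes. Effects are log2 fold changes of dKO_EV over WT_EV ± their standard error, with n = 2 libraries in each group. A gene "rose" or "fell" where its adjusted p was under 0.05 by the quasi-likelihood test of edgeR, adjusted by Benjamini-Hochberg over the 12317 autosomal genes tested. In bulk RNA, fewer cells of a type and less RNA per cell cannot be told apart. By this test 1916 genes (15.6% of those tested) were called, 1021 higher (8.29%) and 895 lower (7.27%) in dKO_EV. Without WT_EV replicate 1 or WT_EV replicate 2 the calls came to 1164 and 1110. Most changes were small, as 1337 of the 1916 were under 1.5-fold and 320 (2.6% of those tested) were at least 2-fold, 202 of these higher and 118 lower. The libraries of the 2 groups did not overlap for 6514 genes (52.9%), so non-overlap alone says little about a gene. Autosomal counts were fewest in dKO_EV replicate 1 (15050225) and most in dKO_EV replicate 2 (21637968). The 10 most abundant genes took 4.94 to 5.29% of each library. The median log2 fold change was -0.0042. TMM scaling keeps this median near 0, so it cannot show a shift shared by all genes.

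**Figure D1:**
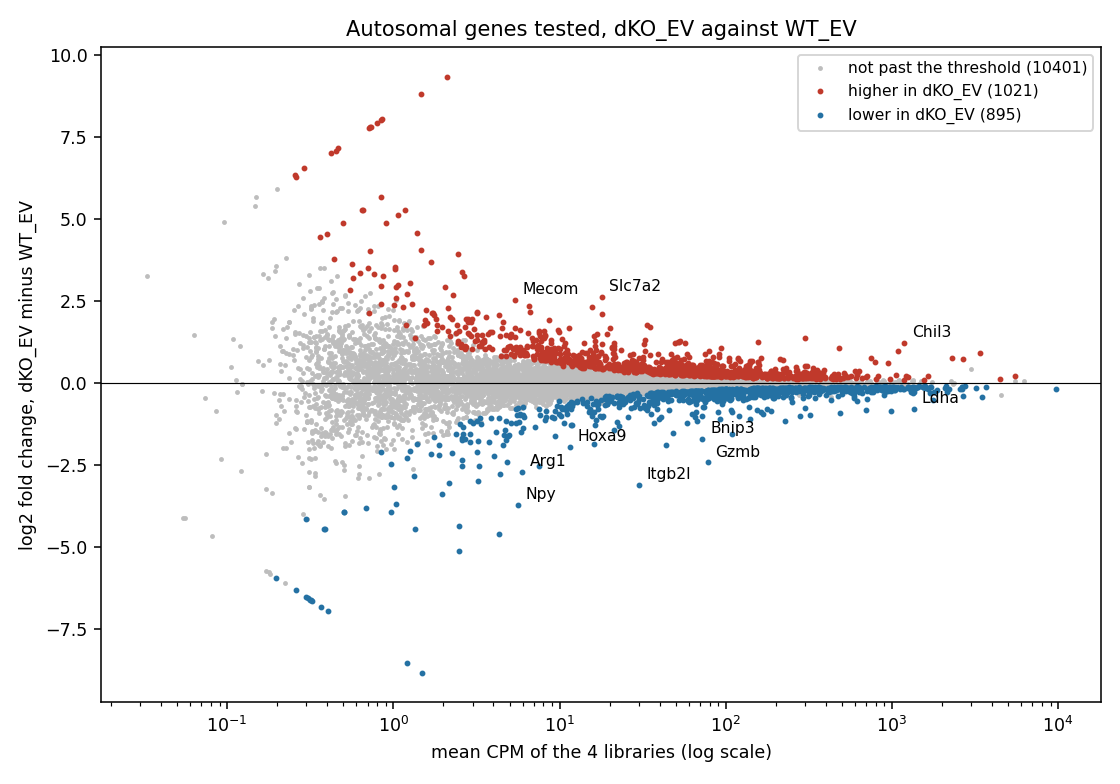
Each point is 1 of the 12317 autosomal genes tested, with its mean CPM over the 4 WT_EV and dKO_EV libraries on a log axis and its log2 fold change on the other. Red points rose (1021), blue points fell (895) and grey points did not pass the threshold. The changes of abundant genes are small and those of low genes spread widely, with Chil3 and Ldha among abundant genes and Slc7a2, Mecom, Npy, Itgb2l and Gzmb among the other genes labelled. The outermost points at low levels include genes with 0 counts in 1 group, whose fitted fold depends on the prior count.

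The targeted genes were read in every library first. Hoxa9 (chromosome 6, 52223097 to 52227370, GRCm38, minus strand) stood at 18.9 and 17.8 CPM in WT_EV against 5.97 and 3.74 CPM in dKO_EV, or -1.94 ± 0.32 (adjusted p = 8.94e-05). Reads over it were thus fewer but present in both dKO_EV libraries, as in the other dKO libraries, where they gave 1.93 to 5.01 CPM. Ctnnb1 (chromosome 9, 120933400 to 120960507, plus strand) moved from 459 and 470.4 CPM to 402 and 391 CPM, or -0.23 ± 0.04 (adjusted p = 4.56e-05). All 6 dKO libraries lay below both WT_EV libraries for both genes. The labels used do not name the deleted exons, and a count over the whole gene also takes reads from exons that remain, so these values do not measure the deletion. Prmt1, the arginine methyltransferase of the other constructs, was at 195 and 199 CPM in WT_EV and 196 and 200.3 CPM in dKO_EV (adjusted p = 0.909), with a change of 0.01 ± 0.04.

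**Figure D2:**
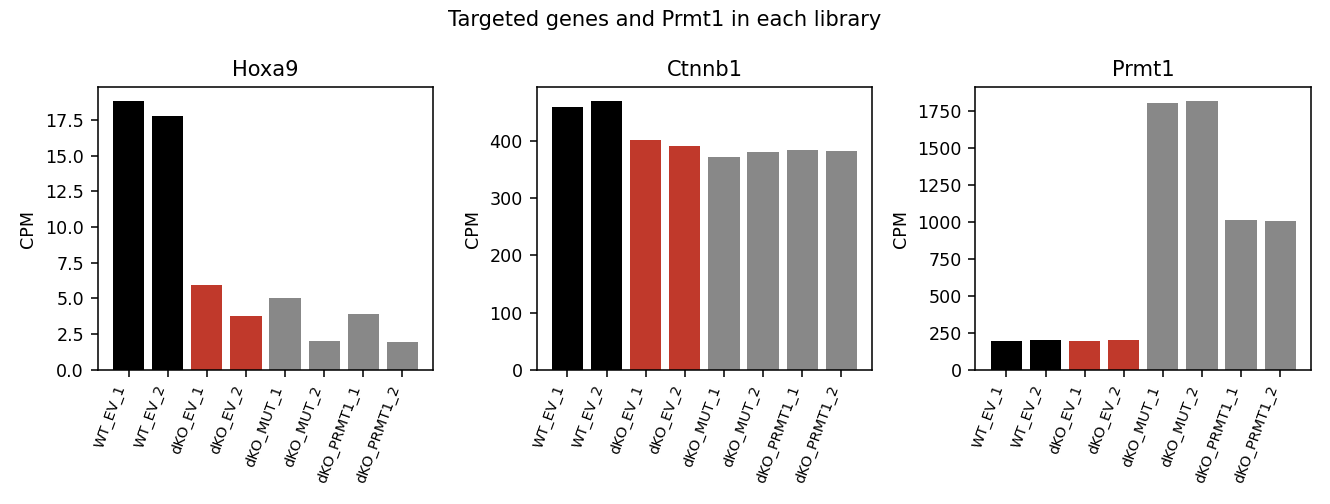
Bars give the CPM of Hoxa9, Ctnnb1 and Prmt1 in each of the 8 libraries, with WT_EV in black, dKO_EV in red and the PRMT1 libraries in grey. Hoxa9 is 17.8 CPM or more in WT_EV and 5.97 CPM or less in dKO_EV, Ctnnb1 differs by a small part of its level, and Prmt1 is level between WT_EV and dKO_EV.

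Neighbouring genes were examined because a targeted locus can carry closely linked differences. Within 1 Mb of Hoxa9, 5 of 15 genes tested were called, 1 higher and 4 lower, and within 5 Mb 14 of 72 (19.4%, against 15.6% of all genes). Those nearby were Skap2, an adaptor of leukocyte adhesion, at 0.19 ± 0.06, the heterochromatin protein Cbx3 at -0.29 ± 0.06 and the RNA-binding protein Hnrnpa2b1 at -0.16 ± 0.03. The non-coding Hotairm1 and the homeobox gene Hoxa7 are described with the Hox genes. Within 1 Mb of Ctnnb1, 8 of 16 were called, 4 in each direction, and within 5 Mb 17 of 63 (27%). They were the chemokine receptor Cx3cr1 (from 21.5 and 20.3 CPM to 9.25 and 11.6 CPM), the ribosomal protein genes Rpsa (-0.18 ± 0.03) and Rpl14 (-0.16 ± 0.03) and the mitochondrial protein Higd1a (-0.53 ± 0.09), which fell, and Csrnp1 (0.46 ± 0.15), the trafficking gene Sec22c (0.31 ± 0.10), Nktr (0.21 ± 0.07) and the peptide receptor Vipr1 (2.15 ± 0.74), which rose. Cbx3, Cx3cr1, Rpsa and Higd1a kept their call whichever of the 8 libraries was left out. The adjusted p was 0.283 for Skap2, 0.0807 for Rpl14, 0.0581 for Csrnp1, 0.0695 for Nktr and 0.175 for Vipr1 without WT_EV replicate 1. It was 0.078 for Hnrnpa2b1, 0.266 for Csrnp1, 0.288 for Sec22c, 0.318 for Nktr and 0.277 for Vipr1 without WT_EV replicate 2. Without dKO_EV replicate 1 it was 0.0791 for Csrnp1 and 0.191 for Nktr, and without dKO_EV replicate 2 0.0832 for Skap2, 0.0834 for Sec22c and 0.315 for Vipr1. Nktr and Vipr1 also lost their call without either dKO_PRMT1 library (adjusted p from 0.0505 to 0.0918). Fitted on the 4 WT_EV and dKO_EV libraries alone, Nktr (0.0667), Vipr1 (0.0918) and Sec22c (0.0509) were not called, and with DESeq2 Nktr was not (0.0606). The part of linkage to the targeted loci was not tested. Chromosomes as a whole ran from 12.6% (chromosome 17) to 18.6% called (chromosome 6), with 18.1% on chromosome 9.

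Called genes whose mean reached 5 CPM were ranked by fold. The largest increase was that of Slc7a2 (chromosome 8, 40862367 to 40922070), a carrier of arginine and other cationic amino acids, at 4.05 and 6.01 CPM in WT_EV and 32.9 and 28.6 CPM in dKO_EV (2.61 ± 0.19, adjusted p = 5.35e-13). Mecom (chromosome 3, 29951296 to 30509487), a zinc finger transcription factor of blood stem cells, stood at 1.22 and 2.003 CPM and 8.66 and 9.699 CPM (2.52 ± 0.32). Plet1, a surface protein of progenitors in several tissues, was at 2.03 and 2.28 CPM and 12.9 and 9.15 CPM (2.35 ± 0.26). The ranking took only genes whose libraries did not overlap between the 2 groups.

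Tie1, a receptor tyrosine kinase of vessels and early blood cells, was at 4.76 and 5.73 CPM against 22.3 and 29.7 CPM (2.32 ± 0.18). Art4, an ADP-ribosyltransferase family member that carries a blood group, had 2.13 and 2.73 CPM against 11.1 and 10.7 CPM (2.16 ± 0.27). Aldh1a1, an enzyme of retinoic acid synthesis, had 7.45 and 6.18 CPM against 26.7 and 31.8 CPM (2.10 ± 0.18). The remaining increases were Csgalnact1, an enzyme of chondroitin sulphate synthesis (1.92 ± 0.24), the granule glycoprotein Olfm4 (1.77 ± 0.10), the platelet adhesion protein Vwf (1.69 ± 0.12), the organelle transport gene Mreg (1.68 ± 0.14), Als2cl (1.68 ± 0.20) and Itgae, the alpha chain of an E-cadherin-binding integrin (1.66 ± 0.28).

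At the other end Npy (chromosome 6, 49822729 to 49829505), which encodes neuropeptide Y, fell from 11.4 and 9.46 CPM to 1.31 and 0.3695 CPM (-3.71 ± 0.50, adjusted p = 9.51e-07). Itgb2l (chromosome 16, 96422298 to 96443614), an integrin chain related to Itgb2, fell from 54.98 and 52.9 CPM to 7.15 and 5.45 CPM (-3.12 ± 0.16, adjusted p = 2.30e-17). Arg1, the arginase of alternatively activated macrophages, was at 8.92 and 11.7 CPM and 1.77 and 1.39 CPM (-2.71 ± 0.41). Slc7a2 and Arg1, which bring arginine into the cell and break it down, thus lay at opposite ends of the ranking.

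Car1, the carbonic anhydrase of early erythroid cells, fell from 13.4 and 12.4 CPM to 1.31 and 3.05 CPM (-2.52 ± 0.33). The cytotoxic protease Gzmb, which mast cells also make, fell from 131 and 131 CPM to 23.2 and 25.5 CPM (-2.42 ± 0.09, adjusted p = 9.04e-21). The collagenase Mmp13 fell from 69.8 and 68.5 CPM to 19.9 and 17.5 CPM (-1.89 ± 0.15). After Hoxa9 itself, the remaining decreases were the actin-binding Cnn3 (-1.85 ± 0.19), the mitophagy receptor Bnip3 (-1.71 ± 0.09), the growth factor receptor Pdgfrb (-1.62 ± 0.25), the basophil protease Prss34 (-1.55 ± 0.07) and the organic cation transporter Slc22a3 (-1.51 ± 0.11). In dKO_MUT and dKO_PRMT1, set against the same WT_EV libraries, both libraries lay on the same side of WT_EV for all 24 genes. Since the control libraries are shared, these comparisons are not independent of the one that ranked the genes. The dKO_MUT and dKO_PRMT1 libraries also had 0 Xist counts and held Y-linked reads, so they share the difference of sex from WT_EV.

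**Figure D3:**
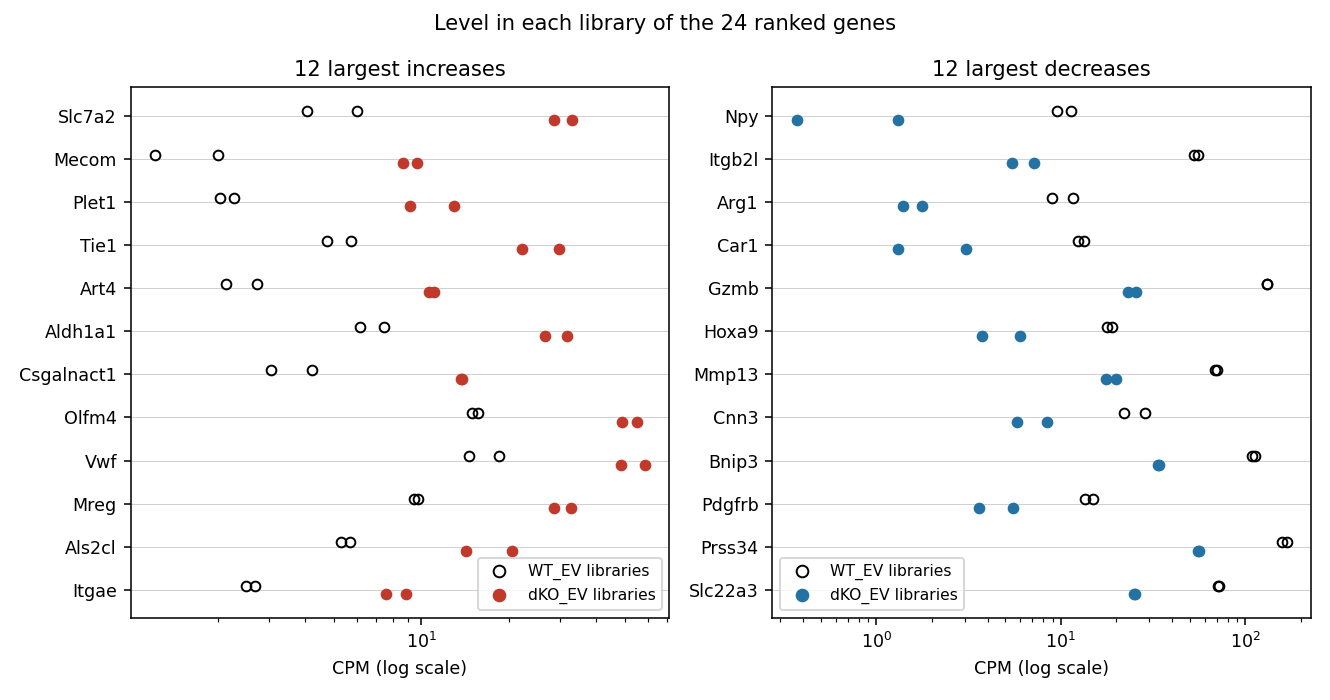
Open circles are the 2 WT_EV libraries and filled circles the 2 dKO_EV libraries, on a log axis of CPM, for the 12 genes that rose most and the 12 that fell most, with a mean of at least 5 CPM. The groups are apart for every gene, which the ranking required. The 2 libraries of a group lie furthest apart at the low levels of Npy and Car1. Smaller gaps are seen for others, such as Mecom in WT_EV (1.22 and 2.003 CPM) and Hoxa9 in dKO_EV (5.97 and 3.74 CPM).

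Genes expressed on 1 side only were counted apart, because a fold against 0 counts is only a lower bound. Of the called genes, 14 had 0 counts in both WT_EV libraries and 11 had 0 counts in both dKO_EV libraries, 13 and 7 of them with an established symbol. With the group at 0 replaced by a floor of 3 counts per library, the receptor tyrosine kinase Alk was at least 26.4-fold higher in dKO_EV and Fgd5, an exchange factor that marks blood stem cells, at least 18.4-fold higher. In the other direction the potassium channel Kcnc1 was at least 14.3-fold lower in dKO_EV, a call that DESeq2 did not make (adjusted p = 0.307). These genes were picked out after their values were seen, and all are low: Fgd5 was at 3.74 and 2.13 CPM in dKO_EV, Alk at 5.25 and 3.19 CPM and Kcnc1 at 2.58 and 2.23 CPM in WT_EV.

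Neutrophils fill their granules in order as they mature: primary granules in promyelocytes, secondary granules in myelocytes, gelatinase granules and surface receptors late. The secondary granule and calprotectin list rose as a block, with 22 of 26 members tested higher and 1 lower and a median of 0.57, against -0.0042 over all genes. Chil3, a chitinase-like protein, went from 696 and 723 CPM to 1648 and 1677 CPM (1.23 ± 0.03, adjusted p = 9.58e-26). The neutrophil surface antigen Cd177 went from 165 and 173 CPM to 427 and 439.6 CPM (1.36 ± 0.04). Lactoferrin (Ltf) went from 728 and 742 CPM to 1415 and 1467 CPM (0.97 ± 0.03) and cathelicidin (Camp) from 301 and 318 CPM to 630.3 and 667 CPM (1.07 ± 0.04). In each case both dKO_EV libraries lay far above both WT_EV libraries, while replicates differed by a few percent.

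S100a9, a chain of calprotectin, moved from 2287 and 2411 CPM to 4265 and 4662 CPM (0.93 ± 0.03), and Ngp from 1712 and 1707 CPM to 2778 and 2981 CPM (0.75 ± 0.03). Smaller rises were seen for the peptidoglycan receptor Pglyrp1 (0.63 ± 0.05), the collagenase Mmp8 (0.45 ± 0.04) and Anxa1 (0.22 ± 0.04), while haptoglobin (Hp) at 0.09 ± 0.04, Ltb4r1 and Orm1 did not pass the threshold. The member that fell was Itgb2l, described above. Cebpe, the transcription factor needed for secondary granules, rose from 67.3 and 68.3 CPM to 105 and 102 CPM (0.60 ± 0.06). Summed over the list, the level was 10710 and 10940 CPM in WT_EV and 18100 and 19150 CPM in dKO_EV, a sum that a few abundant members dominate.

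Primary granule genes, the earlier step, did not move in 1 direction: 3 of 12 were higher and 5 lower, with a median of 0.06. Those that fell were Plac8 (-0.37 ± 0.04), the proteoglycan Srgn (-0.23 ± 0.04), the cathepsin inhibitor Cst7 (-0.42 ± 0.07), cathepsin G (Ctsg, -0.17 ± 0.04) and Nkg7 (-0.30 ± 0.07). Those that rose were Ms4a3 (0.28 ± 0.04), the serine protease Prss57 (0.44 ± 0.09) and the elastase Elane (0.10 ± 0.03). Elane went from 1530 and 1470 CPM to 1576 and 1634 CPM (adjusted p = 0.0429). Mpo, the most abundant, stood at 6127 and 5976 CPM and 6322 and 6401 CPM (0.07 ± 0.03, adjusted p = 0.0671). It passed the threshold under 5 of the alternatives, with adjusted p from 0.0311 by DESeq2 to 0.047 with every chromosome, among them without dKO_EV replicate 1 (0.0418). Without dKO_EV replicate 1, 5 members of this list rose.

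Late neutrophil genes rose for 9 of 23 and fell for 4, with a median of 0.23. The gelatinase Mmp9 rose from 100.3 and 85.7 CPM to 236 and 204 CPM (1.24 ± 0.07). The chemokine receptor Cxcr2 rose from 31.1 and 31.3 CPM to 78.03 and 72.2 CPM (1.27 ± 0.09) and the G-CSF receptor Csf3r from 115 and 126 CPM to 214 and 199 CPM (0.77 ± 0.05). Padi4, which citrullinates histones in neutrophil traps, rose by 0.75 ± 0.06 and the resistin-like Retnlg by 1.26 ± 0.09. The 4 that fell were the C-type lectin receptors Clec4e (-0.65 ± 0.07) and Clec4d (-0.46 ± 0.08), the histidine decarboxylase Hdc (-0.49 ± 0.07), which basophils share, and Mrgpra2b (-1.05 ± 0.22). The transcripts of Il1b and Ccl6 did not pass the threshold. Of the 6 subunits of the NADPH oxidase tested 4 rose, among them Ncf1 (0.24 ± 0.04), Cyba (0.23 ± 0.04) and the GTPase Rac2 (0.21 ± 0.04), and none fell.

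The monocyte and macrophage list went the other way, with 16 of 34 members lower and 4 higher and a median of -0.16. The C1q chains, which start the classical complement pathway and are made by macrophages, all fell: C1qb from 133 and 118 CPM to 60.98 and 56.99 CPM (-1.09 ± 0.08), C1qc from 85.8 and 77.6 CPM to 40.9 and 29.9 CPM (-1.22 ± 0.11) and C1qa by 1.01 on the log2 scale. The lipoprotein lipase Lpl fell from 1254 and 1313 CPM to 659 and 746 CPM (-0.87 ± 0.04, adjusted p = 3.42e-18). The scavenger receptor Cd36 fell from 159 and 164 CPM to 77.1 and 81.98 CPM (-1.02 ± 0.08) and osteopontin (Spp1) from 191 and 193 CPM to 78.7 and 101 CPM (-1.09 ± 0.08). For these genes, as for 1914 of the 1916 called, the libraries of the 2 groups did not overlap.

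Receptors that recognise antibody and endotoxin fell as well, the Fc receptor Fcgr1 from 211 and 209.6 CPM to 109 and 119.9 CPM (-0.87 ± 0.06) and Cd14 from 55.6 and 52.2 CPM to 23.5 and 26.6 CPM (-1.10 ± 0.12). The transcription factors Maf (-0.74 ± 0.09) and Irf8 (-0.37 ± 0.06) and the fractalkine receptor Cx3cr1 fell too. Members that did not pass the threshold included Adgre1, which encodes F4/80, at -0.09 ± 0.05, the monocyte markers Ly6c2 (-0.15 ± 0.13) and Ccr2 (-0.11 ± 0.04) and the mannose receptor Mrc1 (0.05 ± 0.06). Ly6c2 was past it without dKO_EV replicate 1 and Ccr2 without WT_EV replicate 1 (adjusted p = 0.0467 in both). Fibronectin (Fn1, 0.66 ± 0.06) and Klf4 (0.47 ± 0.08) were the 2 of the 4 rising members that kept their call whichever library was left out, and 2 rose without WT_EV replicate 2 or dKO_EV replicate 1.

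In the list of macrophage lipid handling 10 of 28 fell and 3 rose. Beside Lpl and Cd36, these were the desaturases Scd2 (851 and 817 CPM to 598 and 582 CPM, -0.50 ± 0.04) and Scd1 (-1.42 ± 0.16), the cholesterol exporter Abca1 (-1.27 ± 0.23) and Gpnmb (-0.29 ± 0.03), while another exporter, Abcg1, rose (0.33 ± 0.07). Only 1 member rose without WT_EV replicate 2. Lysosomal genes split evenly, 9 higher and 9 lower of 49, or 5 and 5 without WT_EV replicate 2. Cathepsin L (Ctsl) stood out with 312 and 312 CPM in WT_EV and 136 and 145 CPM in dKO_EV (-1.15 ± 0.06, adjusted p = 1.03e-17), followed by the proteases Lgmn (-0.46 ± 0.05) and Ctsb (-0.27 ± 0.03), while the mannosidase Man2b1 (0.30 ± 0.04) and prosaposin (Psap, 0.11 ± 0.03) rose.

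MHC class II presentation, by which antigen-presenting cells display peptides to helper T cells, rose for 8 of 13 members with 0 lower and a median of 0.55. The transactivator of the pathway, Ciita, rose from 22.95 and 23.8 CPM to 43.1 and 37.6 CPM (0.79 ± 0.11). The invariant chain Cd74 rose from 758 and 745 CPM to 1078 and 1202 CPM (0.60 ± 0.04). The class II chains followed, H2-Aa from 158 and 163 CPM to 262 and 271 CPM (0.73 ± 0.05), H2-Ab1 from 168 and 166 CPM to 265 and 279 CPM (0.70 ± 0.05) and H2-Eb1 from 112 and 104 CPM to 176 and 172 CPM (0.68 ± 0.06). The peptide loader chain H2-DMb1 rose too (0.54 ± 0.08), and the protease Ctss, which trims the invariant chain, was at 0.02 ± 0.03. Without dKO_EV replicate 1 a member of this list fell. Class I presentation had 0 of 21 higher and 6 lower, led by B2m (-0.20 ± 0.03), and 1 lower without WT_EV replicate 2 or dKO_EV replicate 1.

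Mast cell and basophil genes fell for 12 of 18 members tested, with 0 higher and a median of -0.44. The basophil proteases were Prss34 at 167 and 159 CPM in WT_EV and 55.1 and 56.1 CPM in dKO_EV (-1.55 ± 0.07, adjusted p = 2.33e-18) and Mcpt8 at 415 and 444 CPM and 202 and 232 CPM (-0.98 ± 0.05). Carboxypeptidase A3 (Cpa3), of mast cell granules, fell from 367 and 382 CPM to 185 and 187 CPM (-1.01 ± 0.05), and the chymase Cma1 from 4.81 and 6.46 CPM to 0.721 and 1.201 CPM (-2.52 ± 0.52). The beta chain of the high-affinity IgE receptor, Ms4a2, fell (-0.88 ± 0.07), as did the IL-33 receptor Il1rl1 (-0.94 ± 0.09) and Cyp11a1 (-0.83 ± 0.06), whereas the alpha chain Fcer1a was at 53.7 and 57.5 CPM and 54.4 and 55.6 CPM (-0.01 ± 0.09).

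Of the defining mast cell genes in the list, Mcpt4, Tpsab1 and Mrgprb1 had 0 counts in all 4 libraries. The summed level of the mast cell and basophil list was 3254 and 3332 CPM in WT_EV and 2248 and 2246 CPM in dKO_EV. Without dKO_EV replicate 1 a member rose. Of the eosinophil genes 2 of 11 rose and 0 fell, a called share of 18.2% against 15.6% over all genes. The 2 were Cebpe, which the granule list also holds, and the peroxidase Epx (88.7 and 83.97 CPM to 109 and 106 CPM, 0.31 ± 0.07). Their median was -0.41 over the 11, but 0.17 over the 5 whose mean reached 5 CPM. Without dKO_EV replicate 1 there were 2 lower and without dKO_MUT replicate 1 or 2 there was 1 lower, as with no low-count filter and with the 4 libraries alone. Whether this list differed from the mast cell and basophil list was not tested.

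In the stem and early progenitor list 19 of 42 rose and 5 fell, with a median of 0.36 over the 42 and 0.18 over the 30 whose mean reached 5 CPM. Mecom, described above, had the largest rise among members whose mean reached 5 CPM. Esam, an adhesion molecule of stem cells and endothelium, went from 0.253 and 0.668 CPM to 3.54 and 5.96 CPM (3.38 ± 0.54) and Nkx2-3 from 0.304 and 0.167 CPM to 3.61 and 2.68 CPM (3.68 ± 0.74), both at levels where a library holds few counts. The transcription factor Mycn rose from 12.01 and 12.1 CPM to 24.7 and 21.8 CPM (0.94 ± 0.16). The adhesion receptor Adgrg1 rose from 312 and 312 CPM to 399 and 386 CPM (0.33 ± 0.04), and the Hoxa9 partner Meis1 by 0.42 ± 0.12. Meis1 missed the threshold without WT_EV replicate 1, WT_EV replicate 2 or dKO_EV replicate 1 (adjusted p = 0.0847, 0.0825 and 0.0686).

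The stem cell members that fell were the FLT3 ligand receptor Flt3, from 36.3 and 32.7 CPM to 15.9 and 17.9 CPM (-1.02 ± 0.14), Cd34 (-0.38 ± 0.06), the SLAM family marker Cd48 (-0.45 ± 0.07), the transcription factor Gata2 (-0.37 ± 0.06) and Ifitm1 (-0.21 ± 0.04). Flt3 and Cd48 are known as absent or low on the most primitive blood stem cells and higher on multipotent and committed progenitors. The stem cell factor receptor Kit, at 149 and 142 CPM and 162 and 143 CPM, Ly6a (Sca-1) at 271 and 261 CPM and 246 and 263 CPM, and Runx1, Tal1 and Lmo2 did not pass the threshold. None of the 42 was at 0 in all 4 libraries, beside the abundant transcripts of granulocytes and monocytes described above. The summed level of the list was 3018 and 2972 CPM in WT_EV and 3136 and 3053 CPM in dKO_EV.

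Hox genes are arranged in clusters, and blood cells use mainly the A and B clusters. Of the 20 Hox genes and cofactors tested 6 rose and 3 fell. Hoxa7, next to Hoxa9 in the A cluster, was at 7.195 and 5.06 CPM in WT_EV and 1.71 and 2.59 CPM in dKO_EV (-1.49 ± 0.38), and Hotairm1, a non-coding RNA of the cluster, at 1.67 and 1.95 CPM and 0.328 and 0.0924 CPM (-3.16 ± 0.89). Hoxa7 missed the threshold without WT_EV replicate 1 (adjusted p = 0.136). Hotairm1 missed the threshold without WT_EV replicate 1, WT_EV replicate 2 or dKO_EV replicate 2 (adjusted p = 0.0977, 0.151 and 0.0975). In the B cluster, Hoxb5 and Hoxb8 had 0 counts in both WT_EV libraries and 1.902 and 0.9699 CPM and 2.03 and 1.16 CPM in dKO_EV, at least 9-fold and 10-fold higher than the floor of 3 counts, with adjusted p = 0.00067 and 0.00149. Hoxb8 missed the threshold without WT_EV replicate 1 or WT_EV replicate 2 (adjusted p = 0.0587 and 0.0564). The dKO_MUT and dKO_PRMT1 libraries held less of Hoxb5 (0.28 to 0.63 CPM) and of Hoxb8 (0 to 0.37 CPM) than either dKO_EV library. Hoxb4, at 5.57 and 7.12 CPM and 7.54 and 7.62 CPM, did not pass the threshold. Without WT_EV replicate 1 the list had 2 higher and 1 lower, and without WT_EV replicate 2 it had 3 higher. Of the 30 components and targets of Wnt and beta-catenin signalling, 1 rose (0 without dKO_EV replicate 1) and 2 fell, which were Ctnnb1 and Myc (187 and 187 CPM to 161 and 161 CPM, -0.22 ± 0.05), against 8.29% and 7.27% over all genes.

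Lists of other lineages differed in how much of them was measured. Platelet and megakaryocyte genes rose for 7 of 21 and fell for 2, and 18 of the 21 reached a mean of 5 CPM. Vwf was at 14.6 and 18.5 CPM in WT_EV and 58.8 and 48.5 CPM in dKO_EV. P-selectin (Selp) rose from 9.37 and 9.63 CPM to 23.7 and 22.8 CPM (1.29 ± 0.17) and the integrin chain Itgb3 from 95.2 and 93.04 CPM to 142 and 156 CPM (0.66 ± 0.07). Thrombospondin (Thbs1, -0.28 ± 0.04) and Plek (-0.22 ± 0.04) fell and the platelet chemokine Pf4 was at -0.09 ± 0.07. Of the platelet surface glycoproteins, Itga2b rose (0.28 ± 0.06). The glycoproteins Gp5 (-0.11 ± 0.16), Gp1bb (-0.09 ± 0.24), Gp1ba (0.32 ± 0.24) and Gp9 (0.21 ± 0.26) did not pass the threshold. Erythroid genes fell for 6 of 21 and rose for 1 (0 without WT_EV replicate 2 or dKO_EV replicate 2), with the factor Klf1 at 10.9 and 11.5 CPM and 5.31 and 4.99 CPM (-1.12 ± 0.27) and the transferrin receptor Tfrc at 355 and 361 CPM and 276 and 284 CPM (-0.36 ± 0.04). In this list 7 of the 29 autosomal members, the globins Hba-a1 and Hbb-bs among them, were at 0 in all 4 libraries.

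The B cell list fell for 2 of 9 (1 without any of the libraries except dKO_EV replicate 2, and 0 or 1 under all 7 other alternatives), with Dntt, the polymerase of lymphoid progenitors, at 8.21 and 8.51 CPM and 0 and 0.6004 CPM (-4.60 ± 0.62). T and NK genes fell for 3 of 10 and rose for 1 (0 without WT_EV replicate 1). Those that fell were Gzmb, the IL-7 receptor Il7r (71.2 and 75.9 CPM to 48.8 and 50.6 CPM, -0.56 ± 0.10) and Nkg7, and Cd3e, Cd8a and Bcl11b were at 0. Endothelial and stromal genes were 3 higher and 3 lower of 11. The endothelial Tie1 and Eng (0.57 ± 0.10) were among those higher and Pdgfrb and Vcam1 (-0.49 ± 0.11) among those lower, with the stromal Cxcl12, Pdgfra and Col3a1 at 0. The part that a change in the mix of neutrophil, monocyte, mast cell and progenitor RNA plays in the other lists was not tested.

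Cells low in oxygen stabilise the HIF factors, which switch on glycolysis and genes such as Bnip3 and Pdk1 that spare oxygen in mitochondria. HIF binds DNA at a short core, read here only as the letters ACGTG. The other form of the core, GCGTG, was not searched. Members of both gene lists that this programme is known for fell here, so the sequences of 4 of them are shown first: those with the smallest p among the members that fell whose RefSeq start site coincides with the end of the counted gene and that hold the core. Each line gives the 250 bases before the start site, 5′ to 3′ on the gene's strand (RefSeq, GRCm38.p6), with every ACGTG and its reverse complement CACGT in capitals. Where the 2 overlap they form CACGTG, the E-box that Myc and other factors recognise, which is counted as 2 matches.
Ldha: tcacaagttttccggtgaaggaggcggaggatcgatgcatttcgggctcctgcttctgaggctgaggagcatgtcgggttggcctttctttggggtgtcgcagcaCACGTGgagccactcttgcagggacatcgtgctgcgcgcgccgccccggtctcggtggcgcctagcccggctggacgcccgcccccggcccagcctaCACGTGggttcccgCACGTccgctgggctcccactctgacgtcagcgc
Bnip3: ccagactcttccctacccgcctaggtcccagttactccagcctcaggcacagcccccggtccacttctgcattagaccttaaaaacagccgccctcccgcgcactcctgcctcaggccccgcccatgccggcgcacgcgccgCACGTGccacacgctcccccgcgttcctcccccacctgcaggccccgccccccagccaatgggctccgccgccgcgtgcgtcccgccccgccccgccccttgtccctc
P4ha1: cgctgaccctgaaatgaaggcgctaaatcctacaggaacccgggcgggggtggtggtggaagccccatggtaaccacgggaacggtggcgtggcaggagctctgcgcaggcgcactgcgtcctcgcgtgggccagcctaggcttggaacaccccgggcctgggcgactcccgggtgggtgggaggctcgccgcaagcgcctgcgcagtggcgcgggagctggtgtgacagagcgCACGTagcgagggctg
Egln3: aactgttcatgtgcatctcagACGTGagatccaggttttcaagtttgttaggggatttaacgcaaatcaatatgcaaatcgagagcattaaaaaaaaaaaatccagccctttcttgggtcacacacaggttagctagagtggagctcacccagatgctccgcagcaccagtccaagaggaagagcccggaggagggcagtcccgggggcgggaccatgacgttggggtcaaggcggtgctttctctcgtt
Ldha lies at chr7:46845554-46845803, plus strand and holds 5 matches, 2 E-boxes among their letters. Bnip3 (chr7:138909507-138909756, minus strand) holds 2 matches in 1 E-box, and P4ha1 (chr10:59323046-59323295, plus strand) and Egln3 (chr12:54203875-54204124, minus strand) 1 match each. Of the 26 members of the 2 lists that fell and had a RefSeq promoter entry 10 (38.5%) held the core, as did 21 of the 50 members tested with an entry (42.0%) and 2026 of the 9375 autosomal genes tested with an entry (21.6%). When the 50 bases after the start were read as well, a window chosen first and then narrowed for display, the shares were 57.7%, 52.0% and 25.6%. The core was thus no more frequent among members that fell than in the lists as a whole in 1 window and slightly more frequent in the other. Tpi1, Aldoa, Gapdh, Mif and Pdk1 hold no match in the 250 bases, and a match is a description of the letters, not a bound site.

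In the glycolysis list 14 of 26 fell and 4 rose, with a median of -0.27. Following the pathway, Gpi1 (-0.27 ± 0.03), the phosphofructokinase chain Pfkl (230 and 218 CPM to 138 and 121 CPM, -0.79 ± 0.06), Aldoa (-0.52 ± 0.03), the triosephosphate isomerase Tpi1 (879 and 904 CPM to 501 and 500 CPM, -0.83 ± 0.04), Gapdh (3978 and 3929 CPM to 2903 and 3031 CPM, -0.41 ± 0.03), Pgam1 (-0.36 ± 0.04) and the pyruvate kinase Pkm (-0.39 ± 0.03) fell. Lactate dehydrogenase A (Ldha) fell from 1682 and 1744 CPM to 987 and 991 CPM (-0.79 ± 0.03, adjusted p = 8.18e-20), and the lactate exporter Slc16a3 from 223 and 216 CPM to 108 and 121 CPM (-0.94 ± 0.06). The decrease thus covered several steps between the sugar phosphates and exported lactate. Not every step was measured, as 29 of the list's 31 genes lay on autosomes and 26 were tested. The only enolase among the members tested, Eno3, had a mean of 5.95 CPM and did not pass the threshold (0.14 ± 0.27). No phosphoglycerate kinase gene was among them. What happened at these steps is therefore left undecided.

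Glucose uptake and its first step were mixed. The transporters Slc2a1 (-0.18 ± 0.09) and Slc2a3 (0.15 ± 0.07) and the hexokinase Hk2 (-0.03 ± 0.06) did not pass the threshold, and Hk1 fell (-0.26 ± 0.04). The members that rose were Ldhb, the heart-type lactate dehydrogenase chain, from 11.2 and 10.7 CPM to 28.3 and 21.7 CPM (1.18 ± 0.14), the ADP-dependent glucokinase Adpgk (0.59 ± 0.06), Pfkfb4 (0.50 ± 0.09) and Hk3 (0.17 ± 0.04, a call lost without WT_EV replicate 1, adjusted p = 0.0654).

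Other hypoxia targets fell for 15 of 31 and rose for 2 (1 without WT_EV replicate 1, WT_EV replicate 2 or dKO_EV replicate 2), with a median of -0.42. Bnip3 fell from 109 and 113 CPM to 33.6 and 34.1 CPM (-1.71 ± 0.09, adjusted p = 5.50e-17). Pdk1, which closes the entry of pyruvate into mitochondria, fell from 114 and 118 CPM to 59.3 and 66.6 CPM (-0.88 ± 0.08), and Mif, a cytokine, from 381 and 375 CPM to 219 and 226 CPM (-0.76 ± 0.05). The oxygen sensors Egln3 (94.2 and 87.97 CPM to 53.9 and 56.4 CPM, -0.72 ± 0.08) and Egln1 (-0.49 ± 0.08) and the collagen hydroxylase P4ha1 (84.97 and 86.7 CPM to 41.97 and 50.3 CPM, -0.89 ± 0.09) also fell.

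Some of the best known targets did not follow. Vegfa stood at 27.6 and 29.8 CPM and 31.3 and 25.6 CPM (-0.02 ± 0.12), the mitophagy receptor Bnip3l at -0.10 ± 0.06, Ddit4 at -0.10 ± 0.17 and Car9 at -0.39 ± 0.22, and Mxi1, a Myc antagonist, rose (0.37 ± 0.07). The oxidative phosphorylation list had 18 of 71 lower and 0 higher with a median of -0.12, led by Cycs (171 and 170.4 CPM to 119.7 and 136 CPM, -0.41 ± 0.06) and the ATP synthase subunit Atp5k (-0.50 ± 0.08). The count of lower members was 8 without WT_EV replicate 1, 6 without WT_EV replicate 2 and 8 without dKO_EV replicate 1.

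Cytosolic ribosomal protein genes made up the largest uniform group: 65 of 76 fell and 0 rose, with a median of -0.16, or 41 lower without dKO_EV replicate 1. The changes were small. Rpl38 went from 515 and 494 CPM to 345 and 364 CPM (-0.51 ± 0.04), Rps29 from 682 and 691 CPM to 498 and 505 CPM (-0.45 ± 0.04), and Rps21 from 569.9 and 547 CPM to 435 and 449 CPM (-0.34 ± 0.04). These genes are short and abundant, so short and abundant genes outside the list were set beside them. Of 439 other genes in the shortest of 4 length classes at 100 CPM or more, 102 (23.2%) fell, with a median of -0.06, against 65 of 72 ribosomal protein genes at that level (90.3%). Longer genes at that level fell for 293 of 1907 (15.4%). Near-identical processed copies of ribosomal protein genes may have taken or lost some reads, so single members are uncertain.

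Ribosome biogenesis genes fell for 20 of 61 with 0 higher and a median of -0.15, or 10 lower without WT_EV replicate 1, and without dKO_EV replicate 1 a member rose. The nucleolar proteins Ncl (1940 and 2016 CPM to 1583 and 1658 CPM, -0.29 ± 0.03) and Npm1 (1392 and 1479 CPM to 1173 and 1183 CPM, -0.29 ± 0.03) led, followed by Nop10 (-0.43 ± 0.08), Nop56 (-0.24 ± 0.05) and Gnl3 (-0.31 ± 0.07). Chaperones of the cytosol and mitochondria fell for 15 of 30 with 0 higher and a median of -0.14. In front were Hsp90aa1 (1472 and 1490 CPM to 1191 and 1225 CPM, -0.29 ± 0.03), Hspd1 (-0.29 ± 0.04) and its partner Hspe1 (-0.39 ± 0.06). Those of the endoplasmic reticulum and the amino acid response under ATF4 fell for 15 of 49 and rose for 2, or 8 and 6 lower without WT_EV replicate 1 and 2 and 1 higher without dKO_EV replicate 1. The serine synthesis enzyme Psat1 fell (284 and 286 CPM to 204 and 216 CPM, -0.44 ± 0.05) and the cystine carrier Slc7a11 rose (0.63 ± 0.13).

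Cholesterol synthesis fell for 12 of 26 with a median of -0.18, or 6 without WT_EV replicate 2. Cyp51 went from 252 and 245 CPM to 197 and 203 CPM (-0.31 ± 0.05) and Acat2 to -0.50 ± 0.08, while Srebf2, the transcription factor that drives the pathway, was at 0.07 ± 0.04. The 1 member that rose became 0 without WT_EV replicate 1, WT_EV replicate 2 or dKO_EV replicate 1, and 2 without dKO_EV replicate 2.

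**Figure D4:**
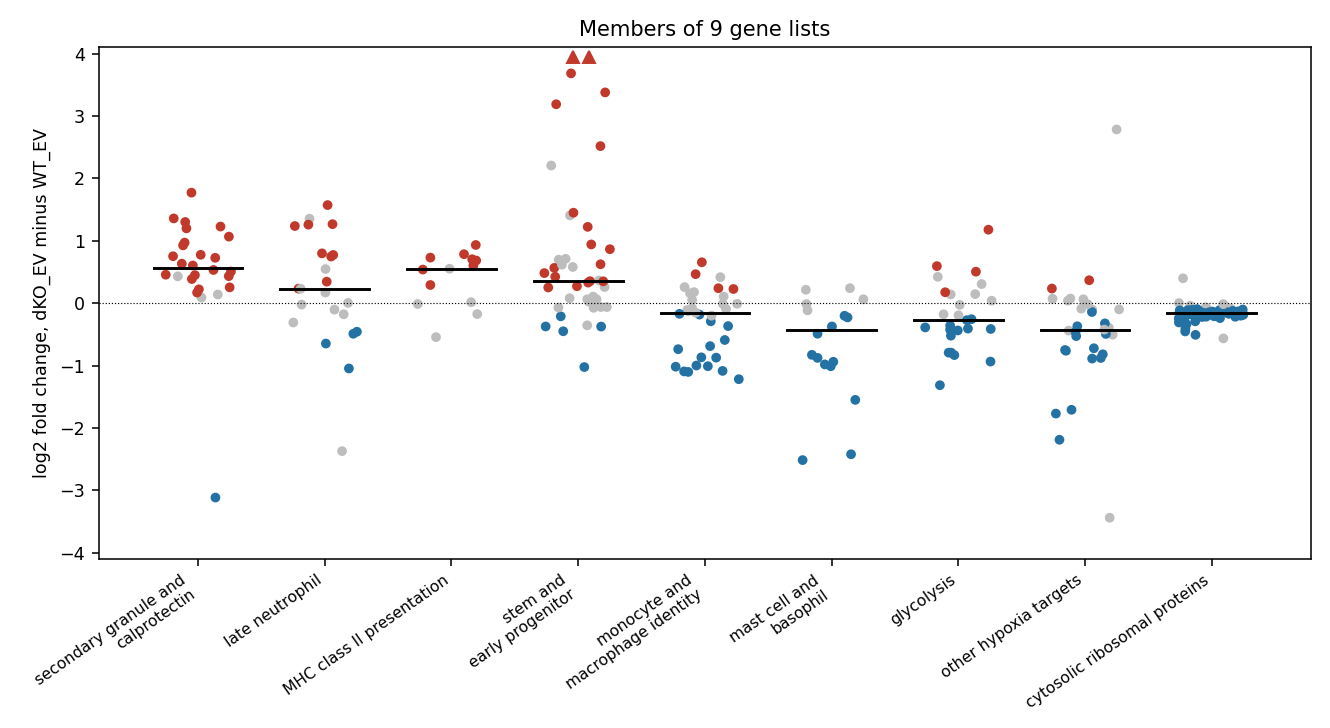
Each point is 1 tested member of the 9 gene lists drawn, placed by its log2 fold change of dKO_EV over WT_EV, red where it rose, blue where it fell and grey where it did not pass the threshold. Black lines are medians, from 0.57 for the secondary granule list to -0.44 for the mast cell list, and triangles at the edge stand for 2 stem cell members beyond the axis.

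The series title names DNA replication, whose helicase loading and fork genes fell for 10 of 68 and rose for 1, with a median of -0.09. The called share was 16.2%, close to the 15.6% over all genes. Mcm3 went from 479 and 466 CPM to 406 and 399 CPM (-0.23 ± 0.04). Mcm7, another subunit of the helicase, went from 425 and 421 CPM to 374 and 363 CPM (-0.20 ± 0.04) and the origin recognition subunit Orc5 from 28.98 and 30.3 CPM to 20.1 and 19.6 CPM (-0.58 ± 0.13). Without WT_EV replicate 2, 3 members fell, and the rising one was lost without WT_EV replicate 1, WT_EV replicate 2 or dKO_EV replicate 1.

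Genes that supply nucleotides fell for 14 of 36 with 0 higher and a median of -0.14, or 7 without WT_EV replicate 1 or WT_EV replicate 2. Dut, which removes dUTP, was at 184 and 181 CPM and 152 and 134 CPM (-0.35 ± 0.06). The purine enzyme Paics was at 323 and 320.3 CPM and 268 and 269.8 CPM (-0.26 ± 0.04) and the ribonucleotide reductase chain Rrm1 at 490.4 and 499 CPM and 437 and 422 CPM (-0.20 ± 0.04). In the list of homologous recombination, checkpoint and Fanconi genes 3 of 54 fell (1 without dKO_EV replicate 2) and 0 rose, a called share of 5.56% against 15.6% over all genes. The helicase Blm was the member called under each library left out (84.7 and 83.7 CPM to 65.4 and 57.1 CPM, -0.46 ± 0.08). Mitosis genes, with a called share of 11.3% against 15.6% over all genes, fell for 7 of 62 with 0 higher. That count was 0 without WT_EV replicate 1, 2 without WT_EV replicate 2, 4 without dKO_EV replicate 1, 3 without dKO_EV replicate 2, 4 without dKO_MUT replicate 2 and 3 without dKO_PRMT1 replicate 2, with 1 higher without dKO_EV replicate 2.

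Among G1 regulators 5 of 26 fell (3 without WT_EV replicate 1 or WT_EV replicate 2) and 2 rose. Cyclin D2 (Ccnd2) went from 229 and 243 CPM to 169.6 and 185 CPM (-0.41 ± 0.05) and its kinase Cdk6 from 87.3 and 72.6 CPM to 55.9 and 57.9 CPM (-0.49 ± 0.08). Cyclin D3 (Ccnd3) rose from 259 and 248 CPM to 309 and 298 CPM (0.26 ± 0.04) and E2f2 by 0.26 ± 0.06. The called share of the G1 list was 26.9%, against 15.6% over all genes (8.29% rose and 7.27% fell). Trp53 and its targets rose for 9 of 38 and fell for 4 (2 without WT_EV replicate 1 and 1 without WT_EV replicate 2), with a median of 0.14. Trp53inp1 rose from 36.4 and 39.1 CPM to 60.2 and 54.7 CPM (0.60 ± 0.09) and Cyfip2 by 0.25 ± 0.04, and the death gene Pmaip1, also called Noxa, fell from 46.1 and 46.4 CPM to 33.4 and 27.9 CPM (-0.60 ± 0.11). The cell cycle inhibitor Cdkn1a, the best known target, was at 139.8 and 142 CPM and 145 and 137 CPM (-0.00 ± 0.06, adjusted p = 0.994).

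Interferon-stimulated genes fell for 18 of 49 and rose for 2, with a median of -0.14. Bst2, which tethers viruses to the cell surface, went from 216 and 217 CPM to 162 and 168 CPM (-0.39 ± 0.06). Ifit2 went from 196 and 206 CPM to 154 and 154 CPM (-0.39 ± 0.06) and Rsad2 from 118 and 133 CPM to 85.6 and 88.1 CPM (-0.53 ± 0.09). The rising members were 0 without WT_EV replicate 1 or WT_EV replicate 2 and 1 without dKO_EV replicate 1. Chemokine genes fell for 5 of 17 and rose for 1 (0 without dKO_EV replicate 1, dKO_PRMT1 replicate 1 or WT_EV replicate 2). Ccl9 went from 639.7 and 629.7 CPM to 322 and 356 CPM (-0.90 ± 0.04, adjusted p = 3.34e-18). The monocyte attractants followed, Ccl2 from 133 and 142 CPM to 81.5 and 73.5 CPM (-0.83 ± 0.09) and Ccl7 from 89.4 and 86.4 CPM to 42.7 and 43.2 CPM (-1.03 ± 0.10), with Cxcl10 (-1.03 ± 0.19) and Ccl4 (-0.87 ± 0.19) lower as well.

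Cytokine receptors of myeloid cells rose for 11 of 27 and fell for 5 (3 without WT_EV replicate 1). Beside Csf3r, the TGF-beta receptor Tgfbr2 rose from 61.6 and 60.99 CPM to 106 and 107 CPM (0.80 ± 0.07) and Il17ra by 0.32 ± 0.05, while Flt3, Il1rl1 and Csf2rb2 (-0.27 ± 0.04) fell. In the list of JAK and STAT signalling and its feedback 7 of 25 rose and 0 fell. Of the 7, Jak1, Jak2 and Stat3 carry the signal, while Cish, Socs2, Socs5 and the phosphatase Ptpn6 damp it. Socs1, Socs3, Socs4, Socs6 and Socs7, also inhibitors, did not pass the threshold. Cish, Jak2 and Ptpn6 were called under every alternative run. Stat3 (adjusted p = 0.168), Socs5 (0.333) and Socs2 (0.531) were not called without WT_EV replicate 1, Jak1 (0.268) without WT_EV replicate 2, Socs5 (0.0648) and Socs2 (0.158) without dKO_EV replicate 1, Jak1 (0.139) without dKO_EV replicate 2 and Socs2 (0.0532) without dKO_PRMT1 replicate 1. With the 4 WT_EV and dKO_EV libraries alone Jak1 (0.0561) and Socs2 (0.0547) missed the threshold, as did Socs2 with DESeq2 (0.0726). Cish, which STAT5 induces and which damps cytokine signals, went from 30.2 and 29.6 CPM to 70.6 and 68.9 CPM (1.22 ± 0.09, adjusted p = 9.63e-13), and the kinase Jak2 from 126 and 137 CPM to 169.8 and 169.5 CPM (0.37 ± 0.06).

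Myeloid transcription factors rose for 12 of 30 and fell for 4. Among those higher were Cebpe, the retinoic acid receptor Rara (67.4 and 62.2 CPM to 90.5 and 97.5 CPM, 0.54 ± 0.07), Tfec (0.51 ± 0.07) and Irf4 (7.65 and 9.24 CPM to 20.1 and 19.3 CPM, 1.22 ± 0.17), and among those lower were Irf8 (144 and 143 CPM to 111 and 111 CPM) and Myb (-0.25 ± 0.04). Irf8 favours monocytes over granulocytes, and Cebpe acts in granulocytes. Immediate early genes rose for 11 of 29 and fell for 2 (1 without WT_EV replicate 1, WT_EV replicate 2, dKO_EV replicate 1 or either dKO_PRMT1 library). Fos went from 59.7 and 58.3 CPM to 101 and 85.6 CPM (0.65 ± 0.08). Egr1 went from 19.4 and 18.1 CPM to 36.4 and 32.2 CPM (0.86 ± 0.12) and Fosb from 1.17 and 1.17 CPM to 5.31 and 5.03 CPM (2.14 ± 0.38). These genes also respond within minutes to the handling of cells, and the part of handling here was not tested.

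Iron genes rose for 4 of 29 and fell for 6 (3 without WT_EV replicate 2). The iron exporter Slc40a1 rose from 41.9 and 40.2 CPM to 79.3 and 73.2 CPM (0.89 ± 0.08) and ferritin light chain (Ftl1) by 0.22 ± 0.03, while the importer Tfrc fell. The siderophore binder Lcn2 (561 and 538 CPM to 924 and 957 CPM, 0.78 ± 0.04) and lactoferrin stand in this list and in the granule list. Of 32 integrins and selectin ligands 5 rose and 5 fell (8 without dKO_EV replicate 2). Those that rose included both chains of Mac-1, Itgam (0.27 ± 0.04) and Itgb2 (520 and 535 CPM to 673 and 682 CPM, 0.36 ± 0.04), and those that fell Itga4, a chain of VLA-4 (337 and 311 CPM to 267 and 249.8 CPM, -0.33 ± 0.05), and its ligand Vcam1.

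Matrix genes and their proteases rose for 10 of 28 and fell for 6, with the neutrophil enzymes Mmp9, Mmp8 and Mmp25 (13.1 and 12.3 CPM to 30.3 and 28.96 CPM, 1.22 ± 0.14) higher and Mmp13 and Adam8 (-0.37 ± 0.06) lower. In the arginine list 2 of 26 rose and 6 fell. The called share was 30.8%, against 15.6% over all genes (8.29% rose and 7.27% fell). Slc7a2 and Arg2, the mitochondrial arginase (5.02 and 3.95 CPM to 12.98 and 9.099 CPM, 1.29 ± 0.25), rose. Arg1, the widely expressed arginine carrier Slc7a1 (180.1 and 175 CPM to 148 and 137 CPM, -0.32 ± 0.06) and the symmetric arginine methyltransferase Prmt5 (124 and 121 CPM to 97.4 and 95.7 CPM, -0.35 ± 0.06) were among those that fell, whereas Prmt1 did not pass the threshold. Both arginases and both carriers therefore differed in opposite directions within the pair.

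Cell death regulators of the Bcl2 family had 1 of 16 higher and 1 lower, Bbc3, also called Puma, from 15.9 and 12.8 CPM to 20.7 and 18.8 CPM (0.45 ± 0.15) and Pmaip1. Bbc3 was no longer called without dKO_PRMT1 replicate 1 (adjusted p = 0.0528), dKO_EV replicate 1 (0.133) or WT_EV replicate 2 (0.423), and 2 members fell without dKO_EV replicate 1. Mcl1, the most abundant member, was at 427 and 444 CPM and 443 and 463 CPM. The called share of the Bcl2 family was 12.5%, against 15.6% over all genes. Of 41 replication-dependent histone genes 0 rose and 1 fell, with 1 higher and 3 lower without dKO_EV replicate 1. The 1 lower, Hist1h2ac, had 0 counts in both dKO_EV libraries against 0.405 and 0.8903 CPM in WT_EV, and its call was lost when any 1 of the WT_EV and dKO_EV libraries was left out (adjusted p from 0.0662 to 0.231). Histone transcripts of this kind lack the poly(A) tail, and only 3 of the 41 reached a mean of 5 CPM. Their called share was 2.44%, against 15.6% over all genes.

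**Figure D5:**
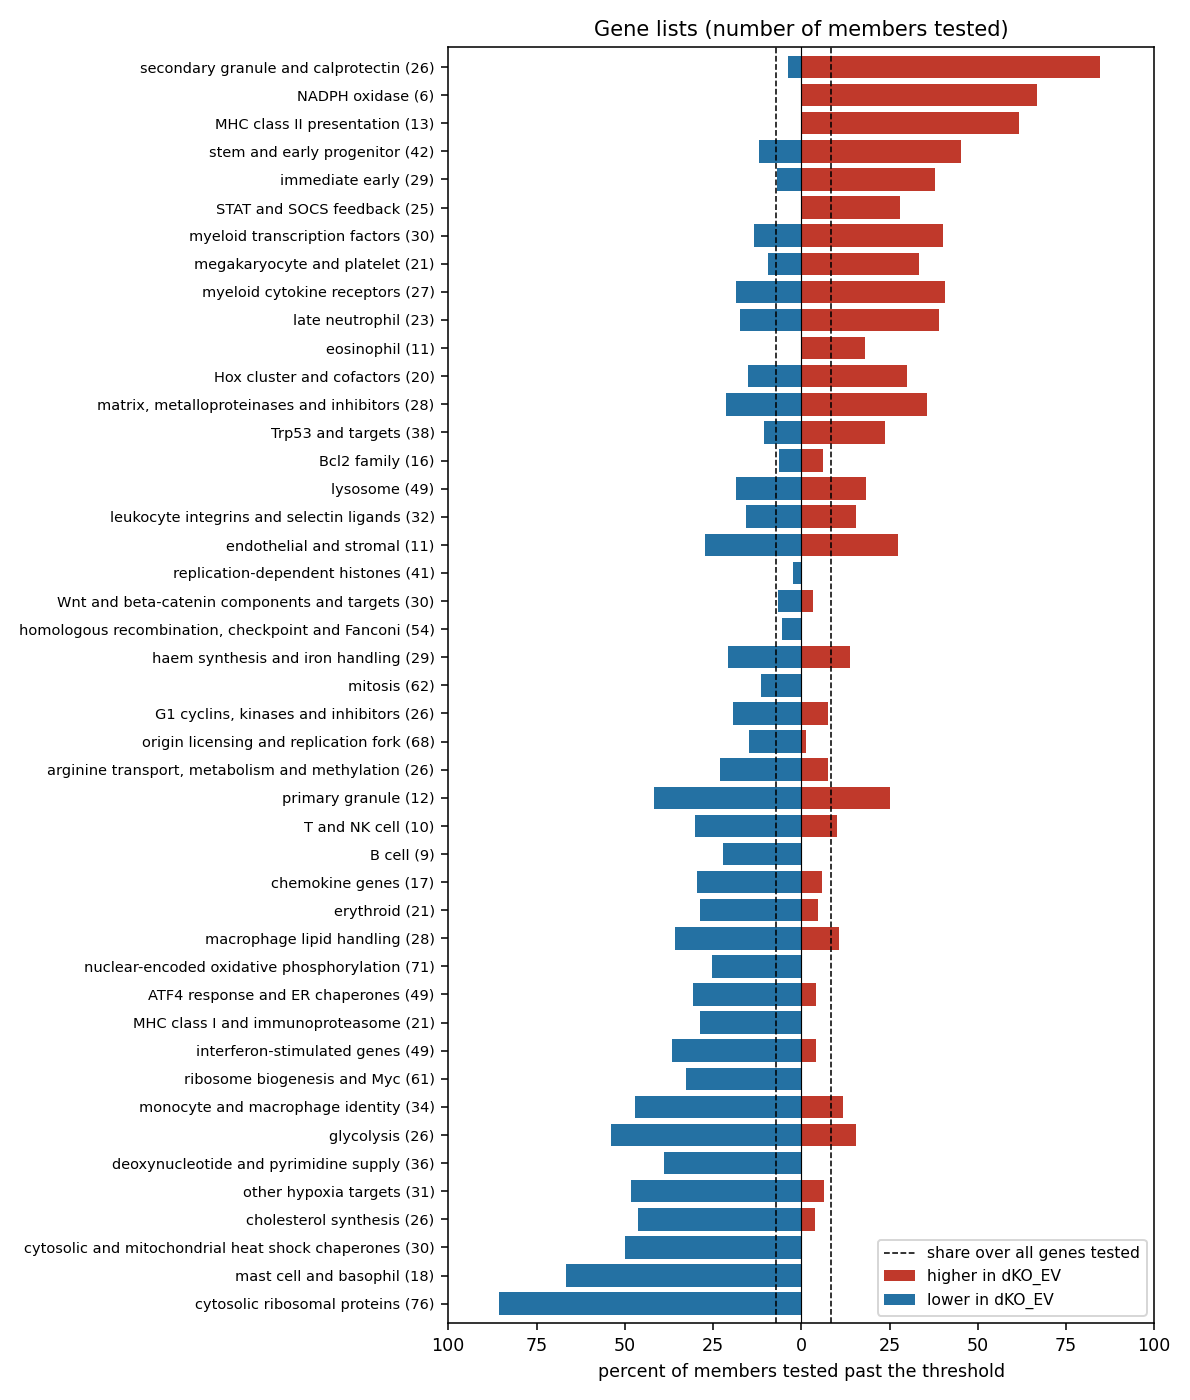
Bars give, for each of the 45 gene lists, the percent of tested members that rose (red, to the right) and fell (blue, to the left), with the number tested in brackets. Dashed lines mark the shares over all genes tested, 8.29% and 7.27%. The secondary granule list stands at the top with 22 of 26 higher and the ribosomal protein list at the foot with 65 of 76 lower.

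How much could be called depended on the level of a gene. Under 1 CPM 4.58% of the genes were called, and at 100 CPM or more 31% (291 higher and 458 lower), where the median called change was 0.22 in size. Between 5 and 20 CPM 195 rose and 81 fell. Lists of abundant genes such as the ribosomal proteins therefore reach the threshold with changes that could not be detected in lists of low genes such as the Hox genes. Genes were also divided by length into 4 classes of equal size. In the shortest class 172 rose and 299 fell, against 341 and 197 in the longest, so the direction of calls moved with gene length as well as with the lists named above. The part of RNA quality or library preparation in that was not tested.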

How the data were processed

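RNA was measured in 8 mouse HSPC libraries, 2 in each of 4 groups taken from the sample titles. Library preparation used the NEB Ultra II Directional kit on RNA isolated by RNeasy Plus Micro columns, per the labels' protocols. The submitters' processing notes name Trim Galore 0.6.6, STAR 2.7.6a, featureCounts and the builds mm10 and GRCm38. No version, strand setting or annotation of featureCounts is given in the sources used here. Overlapping and antisense genes therefore cannot be separated. The authors deposited 1 table of raw counts per gene for 24421 genes, with no replicate pooled, and a gene length in bases, a value of its own kind that was used only to rank genes by length.

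Only the 23262 rows on autosomes were used, of which 8129 had 0 counts in the 4 WT_EV and dKO_EV libraries. filterByExpr kept 12317 genes. edgeR 4.0.16 (R 4.3.3) scaled the libraries by TMM, and its quasi-likelihood test (robust, group as the single factor) was run on the 8 libraries together, with 4 residual and a median of 30.9 prior degrees of freedom. The common biological coefficient of variation came to 0.0636. The threshold was an adjusted p of 0.05 by Benjamini-Hochberg over all 12317 genes. Standard errors were derived from each fold change and F statistic. A group at 0 was given a floor of 3 counts per library, and floors cover counting error only. Library totals of 15531344 to 22329749 counts set the precision.

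The members, the 45 gene lists and the rule for named genes were chosen with earlier results of these data known, so list counts are descriptions and no set test was run. The rule named Hoxa9, Ctnnb1 and Prmt1, the 12 called genes that rose most and the 12 that fell most (mean of at least 5 CPM, groups apart, an established symbol), the called members with the smallest p in each list (up to 6), the most abundant member, members against the majority, and called genes within 1 Mb of Hoxa9 or Ctnnb1. Other genes named were picked after their values were seen, and some genes under the rule are not reported here. In every group the 2 replicates differed beyond sampling noise (chi-square per degree of freedom 3.59 to 6.41, the highest in dKO_EV) and were kept as separate libraries. The fit was tested on simulated data. Alternatives were DESeq2 1.42.0 and its size factors, other filters, the 4 libraries alone, a replicate block, every chromosome and each library left out. Promoters of 9375 tested genes were matched by symbol to RefSeq (GRCm38.p6).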

Additional observations from a re-analysis of the deposited data

Results flagged for a closer look

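Genes on the Y chromosome, which the comparison of autosomes leaves out, were present in dKO_EV and had 0 counts in both WT_EV libraries. With WT_EV set to a floor of 3 counts per library, Ddx3y was at least 398-fold higher in dKO_EV, Eif2s3y at least 351-fold, Kdm5d at least 164-fold and Uty at least 164-fold. Xist, which silences an X chromosome in female cells, had a mean of 145 CPM in WT_EV and 0 counts in dKO_EV, at least 865-fold lower. Genotype and sex of the mice therefore cannot be told apart in any value of this comparison, autosomal genes included. The dKO_MUT and dKO_PRMT1 libraries likewise had 0 Xist counts and held Y-linked reads. The same limit holds where they are set against WT_EV.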

How the results depend on the processing

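The count of called genes (1916) was 1900 with DESeq2's size factors, 1980 without a filter, 1720 with a mean of at least 5 CPM, 1671 with DESeq2's own test, 1621 with the 4 libraries alone and 1967 with every chromosome, of which 1884, 1874, 1646, 1653, 1608 and 1871 were among the 1916. Genes changed at least 2-fold were 320, but 122 with a mean of at least 5 CPM, since most are low, and 202 and 195 without WT_EV replicate 1 and 2. Leaving out 1 library gave 1110 to 1916 called, 597 to 1051 higher and 513 to 901 lower. Without WT_EV replicate 1 there were 1164, 647 and 517, and without WT_EV replicate 2 1110, 597 and 513; the cause was not tested. No named gene reversed. Replicate numbers did not pair the libraries (correlations of deviations -0.048 to 0.023, and -0.012 for WT_EV with dKO_EV), and the replicate block called 1874, 1002 higher and 872 lower, 1857 of them shared. Among named genes the block ended the call of Vipr1 (adjusted p = 0.06) and gave one to Mpo (0.0396), and it gave 1 lower member in each of the eosinophil, B cell and immediate early lists. With the low-count filter at a mean of 5 CPM, 12 stem cell and 2 Hox members rose. With the 4 libraries alone 11 oxidative phosphorylation members fell, and 2 mitosis members fell there and with DESeq2. Bbc3 was not called with DESeq2 (0.0584) or the 4 libraries alone (0.0629). Genes under 1 CPM are limited by depth: 49 of 1069 were called, all at least 2-fold changed.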

Other observations

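The other double-knockout libraries can be set beside these for some of the lists, chosen after their values were seen, as levels only, since all groups are read against the same WT_EV libraries. The secondary granule list summed to 18100 and 19150 CPM in dKO_EV. It was 23650 and 23830 CPM in dKO_MUT, and dKO_PRMT1 had 20800 and 21160 CPM, all above the 10710 and 10940 CPM of WT_EV. Glycolysis summed to 11540 and 11850 CPM in dKO_EV and to between 11440 and 12320 CPM in the PRMT1 libraries, all below the 15780 and 15690 CPM of WT_EV. The mast cell and basophil list gave 2412 and 2378 CPM in dKO_MUT, while dKO_PRMT1 had 1954 and 1926 CPM, on either side of the 2248 and 2246 CPM of dKO_EV. Ribosomal protein genes summed to 64730 and 67270 CPM in dKO_EV and to 71160 and 73480 CPM in dKO_MUT, while dKO_PRMT1 had 66560 and 68600 CPM, next to 74000 and 73330 CPM in WT_EV. MHC class II presentation stood at 3181 and 3389 CPM in dKO_EV and at 2557 and 2533 CPM in WT_EV. It was 2810 and 2797 CPM in dKO_MUT, and dKO_PRMT1 had 3300 and 3250 CPM. Other hypoxia targets gave 1912 and 1966 CPM in dKO_EV and 1755 to 1885 CPM in the PRMT1 libraries, below the 2530 and 2553 CPM of WT_EV. Interferon-stimulated genes, at 6136 and 6336 CPM in dKO_EV against 7105 and 7109 CPM in WT_EV, stood at 3684 to 4043 CPM in the PRMT1 libraries.

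Of the 12 largest increases, both libraries lay below both dKO_EV libraries for 11 genes in dKO_MUT and for 10 in dKO_PRMT1. Of the 12 largest decreases, both libraries lay above both dKO_EV libraries for 4 genes in dKO_MUT and for 2 in dKO_PRMT1. Slc7a2 was at 11.6 and 9.93 CPM in dKO_MUT, while dKO_PRMT1 had 17.7 and 12.7 CPM, between the 4.05 and 6.01 CPM of WT_EV and the 32.9 and 28.6 CPM of dKO_EV. Mecom lay in between too, at 4.10 and 4.37 CPM in dKO_MUT against 2.54 and 2.87 CPM in dKO_PRMT1. Olfm4, at 49.1 and 55.3 CPM in dKO_EV, was higher in dKO_MUT, at 74.2 and 77.3 CPM, and lower in dKO_PRMT1, at 41.7 and 44.1 CPM. The collagenase Mmp13, at 19.9 and 17.5 CPM in dKO_EV, was lower still in dKO_MUT, at 4.29 and 2.52 CPM, and in dKO_PRMT1, at 6.05 and 8.98 CPM. Because these genes were ranked on dKO_EV itself, levels nearer to WT_EV in another group are a description with no test.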
